A study of Mus musculus with 7 samples.

Results

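The 38 genes described here encode the laminins, type IV collagens, nidogens, proteoglycans and related proteins of the basement membrane, and the integrins and hemidesmosome proteins that bind cells to it. They were chosen by symbol from a list of these families, and all 38 were found among the 54446 genes of the count table. Polyadenylated RNA was sequenced from pancreatic spheroids, which are epithelial cells grown in 3-dimensional culture, here derived from wild-type C57BL/6J mice. There were 4 libraries of spheroids from mice that had earlier been given caerulein (post-caerulein 01 to 04), a cholecystokinin analogue that causes acute pancreatitis, and 3 of spheroids from untreated mice (untreated 01 to 03). Both groups carried no engineered allele in the labels and were grown in the same medium with EGF, hydrocortisone, cholera toxin, bovine pituitary extract and serum supplement. The labels used here leave out age, sex, dose, the interval after caerulein and the number of passages. The comparison asks what an earlier caerulein treatment leaves in the epithelium that is grown out afterwards.

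A basement membrane is a thin sheet of matrix under every epithelium. Laminins, which are trimers of an alpha, a beta and a gamma chain, and type IV collagen, also a trimer, each form a network, and nidogens and heparan sulfate proteoglycans such as perlecan and agrin join these networks. Integrins are heterodimers of an alpha and a beta chain that bind the sheet from the cell: some couple it to actin, and the alpha-6 beta-4 integrin couples it to keratin filaments through plectin and dystonin in hemidesmosomes. In the pancreas such sheets surround ducts, acini and vessels, and integrins with the alpha-V chain and the beta-6 or beta-8 chain are known to activate latent TGF-beta.

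Type IV collagen genes lie in head-to-head pairs, so their starts are shown first. By the deposited exon coordinates (GRCm38), Col4a1 and Col4a2 start 21 bases apart on chromosome 8 and their first exons overlap, whereas the starts of Col4a3 and Col4a4 lie 127 bases apart on chromosome 1 and those of Col4a5 and Col4a6 1309 bases apart on chromosome X. The stretch common to both first exons, at chr8:11312805-11312826, is given on the plus strand in which Col4a2 is read.
Col4a1 and Col4a2: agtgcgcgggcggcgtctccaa

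Upstream sequence from RefSeq (GRCm38.p6) was found for 28 of the 38 genes. It is shown for 4 genes that passed the test in the comparison that left out 2 libraries, described below. Their windows held at least 150 bases ahead of any annotated exon. With Lama3 set aside, they had the largest changes among such genes. Lama3 was not considered for display, although its log2 fold change in that comparison was 1.27, against 1.24 for Itgb6. Each line runs 5′ to 3′ on the strand of its gene and stops before the first annotated exon. Capitals mark matches on either strand to a GC box (GGGCGG) or a CCAAT box (CCAAT), and the sequences were also searched for an AP-1 motif (TGANTCA, N being any base) and a TATA box (TATAAA).
Nid1, chr13:13437352-13437550, plus strand: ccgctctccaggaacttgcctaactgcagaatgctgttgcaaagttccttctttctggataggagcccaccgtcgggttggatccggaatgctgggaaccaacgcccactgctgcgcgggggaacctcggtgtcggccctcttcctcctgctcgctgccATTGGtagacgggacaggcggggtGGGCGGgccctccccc
Npnt, chr3:132950292-132950541, minus strand: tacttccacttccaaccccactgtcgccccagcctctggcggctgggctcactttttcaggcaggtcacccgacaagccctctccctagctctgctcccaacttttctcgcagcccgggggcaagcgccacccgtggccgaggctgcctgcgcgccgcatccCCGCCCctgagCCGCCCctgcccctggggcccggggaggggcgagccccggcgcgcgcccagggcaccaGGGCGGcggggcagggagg
Col4a5, chrX:141475169-141475384, plus strand: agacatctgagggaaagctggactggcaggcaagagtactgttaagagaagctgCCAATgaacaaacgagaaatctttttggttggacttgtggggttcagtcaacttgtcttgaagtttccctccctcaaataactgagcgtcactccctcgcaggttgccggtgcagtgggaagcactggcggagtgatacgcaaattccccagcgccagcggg
Itgb6, chr2:60722644-60722853, minus strand: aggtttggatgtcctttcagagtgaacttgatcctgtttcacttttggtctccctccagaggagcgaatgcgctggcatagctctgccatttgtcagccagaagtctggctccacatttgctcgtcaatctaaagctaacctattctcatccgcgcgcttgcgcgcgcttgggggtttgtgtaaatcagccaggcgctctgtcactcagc
No motif among those searched was present in all 4 sequences. Nid1 had 1 GC box and 1 CCAAT box, Npnt had 3 GC boxes, Col4a5 had 1 CCAAT box and Itgb6 had none of the 4 motifs. Of all 32851 RefSeq windows cut to the 199 bases of the Nid1 sequence, 24.4% held the GC box, 28.2% the CCAAT box, 5.55% the AP-1 motif and 9.11% the TATA box. Cut to the 250 bases of the Npnt sequence, 32.7%, 33.8%, 6.75% and 12.4% held these motifs in the same order. At 216 bases, the length for Col4a5, 30.5% held the CCAAT box, and at the 210 bases of Itgb6 the shares were 26.7% for the GC box, 29.9% for the CCAAT box, 5.84% for the AP-1 motif and 9.56% for the TATA box.

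Total counts per library ranged from 34783738 to 46744497, and 3 counts, the limit that a count of 0 allows, corresponded to 0.0631 to 0.0841 CPM (counts scaled to library sizes after TMM). On the first principal component untreated 03 and post-caerulein 04 lay at 55.4 and 44.5, and untreated 01 and 02 at -49.3 and -47.1. Post-caerulein 01 to 03 lay between these pairs, at -9.44 to 4.09, so the other 5 libraries did not form a single cluster. Untreated 01 and 02 were a close pair, and so were post-caerulein 02 and 03, although each pair differed by more than sampling noise (chi-square per gene of 13.1 and 10.6). With untreated 03 and post-caerulein 04 as a block, the fitted values of the genes described here came within 0.175 (log2) of those in the authors' deposited table. No label says what this block stands for. The group difference was therefore fitted by group alone, with the block as a term, and in the larger block alone (post-caerulein 01, 02 and 03 against untreated 01 and 02). In the smaller block there is 1 library a group, so its difference is a value with no test. Whether each library had its own mouse or culture is not labelled, so the p-values here reflect library-to-library spread, which may be technical.

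Markers of the labelled epithelium were abundant, with a sum over 8 genes such as Epcam, Cdh1 and Krt19 of 14647 to 22519 CPM in post-caerulein and 15286 to 16324 CPM in untreated libraries. The 12 fibroblast and stellate cell markers summed to 3.53 to 8.38 CPM in post-caerulein libraries, against 0.495, 0.316 and 22.5 CPM in untreated 01, 02 and 03. No marker of this list was at 0 in all libraries, and 7 of the 12 stayed under 1 CPM. The 10 endothelial markers summed to 1.71 to 3.03 CPM in post-caerulein and 2.67 to 3.90 CPM in untreated libraries, and 8 of the 10 stayed under 1 CPM. Leukocyte markers summed to 12.8 to 36.4 CPM in post-caerulein libraries, against 25.3, 21.3 and 98.7 CPM in untreated 01, 02 and 03, nearly all of it Cd68, and 8 of the 10 stayed under 1 CPM. The 7 acinar markers summed to 1.72 to 11.5 CPM in post-caerulein and 0.619 to 0.845 CPM in untreated libraries. Squamous and basal markers summed to 32.4 to 65.4 CPM in post-caerulein libraries, against 201, 171 and 20.9 CPM in untreated 01, 02 and 03, with Trp63 at 0 throughout. In such bulk libraries fewer cells of a type and less RNA per cell cannot be told apart.

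The spheroids expressed members of each family described here, while some members were close to 0. Per kilobase of exon, the scale on which genes can be compared, the highest means over the 7 libraries were those of Itga3 (247 CPM per kilobase) and Itgb1 (221), which pair as a laminin receptor, followed by the laminin chain gene Lama5 (157), the agrin gene Agrn (133) and Itgb4 (129). Col4a1 (119.8), Col4a2 (115), Col18a1 (114), Itga2 (111), Itga6 (103), Lamb3 (95.5) and Cd151 (92.5) came next. Between these neighbours the ranges over libraries overlapped. At the other end Lama1, the laminin alpha chain of early embryos, had 0 to 3 reads in each library, and Col17a1, the transmembrane collagen of skin hemidesmosomes, had 2 to 4 reads.

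**Figure D1:**
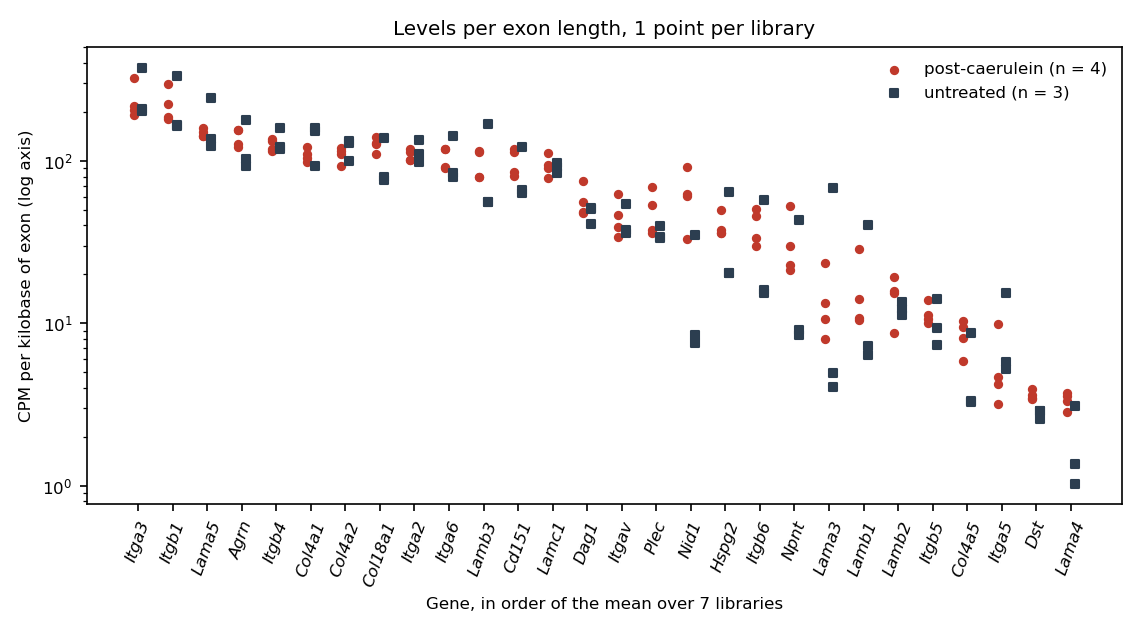
CPM per kilobase of exon on a log axis for the 28 genes of highest mean, with 1 point per library (circles, 4 post-caerulein libraries; squares, 3 untreated libraries). The groups overlap for most genes at the top of the order, while for Nid1, Npnt and Lama3 a pair of untreated libraries lies far below the third.

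Of the 38 genes, 34 passed the filter on low counts and were tested; Lama1, Col4a3, Itga9 and Col17a1 were too low. By group alone none of the 34 passed at an adjusted p under 0.05 by edgeR's quasi-likelihood test, nor did any of the 16438 genes tested (0%). At an unadjusted p under 0.05 there were 5 (Lama4, Nid1, Nid2, Itgb8 and Dst), all higher, or 14.7% against 9.50% of all genes (4.78% higher and 4.72% lower), and DESeq2 called 3 (Nid1, Itgb8 and Dst), where it called 3.12% of all genes. With the block again 0 of the 34 passed, against 1.53% of all genes (0.651% higher and 0.876% lower). There were 11 with an unadjusted p under 0.05, 10 higher and 1 lower (32.4%, against 17.5% of all genes, 8.74% higher and 8.77% lower). DESeq2 with the block called 6 higher (Itgb8, Npnt, Dst, Lama4, Nid1 and Col4a5) and Itga5 lower, where it called 9.16% of all genes.

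In the larger block alone 12 of the 34 genes rose, 35.3% against 7.35% of all 16276 genes, and 1 fell, 2.94% against 6.46% (13.8% in either direction). Those that rose were Lama3, Lama4, Lamb1, Lamb3, Col4a5, Nid1, Hspg2, Col18a1, Npnt, Itgb6, Itgb8 and Dst, and Col4a1 fell. The median log2 fold change of the 34 was 0.47 there, 0.34 with the block and 0.18 by group alone, against 0.01, -0.00 and -0.02 over all genes tested. These calls depended on both libraries of the close untreated pair: without untreated 01 only Nid1 was called (1.76% of all genes), and without untreated 02 only Nid1, Lama4, Hspg2 and Npnt (2.51% of all genes). Without post-caerulein 01 there were 25 called, in a fit that called 32.9% of all genes.

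**Figure D2:**
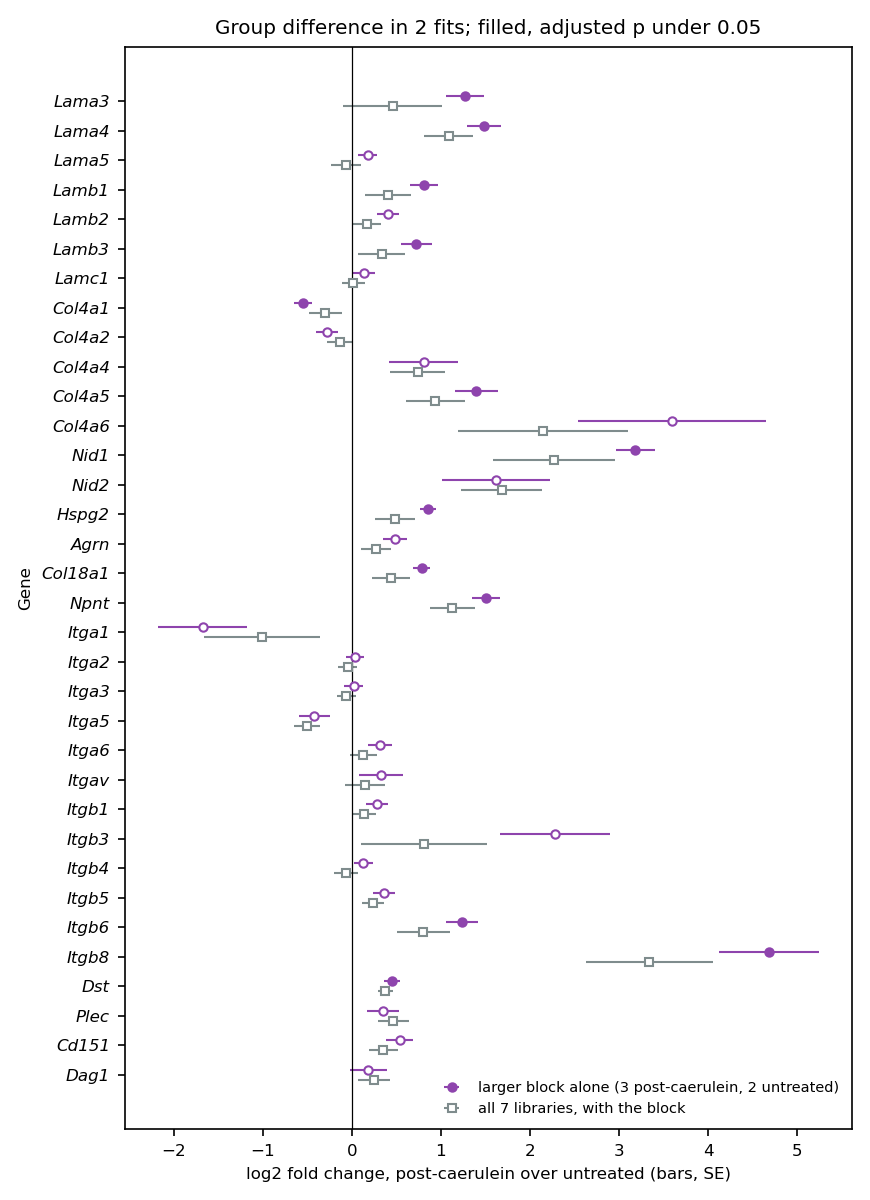
Log2 fold change of post-caerulein over untreated spheroids for the 34 tested genes, with SE as bars, in the larger block alone (circles) and in all 7 libraries with the block as a term (squares); filled symbols have an adjusted p under 0.05. In the larger block 13 genes are filled, 12 to the right of 0 and Col4a1 to the left, and with the block none is.

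Among laminin alpha chains, Lama3, whose product forms the laminin of hemidesmosomes and anchoring filaments, varied most. It was at 143, 114, 86.5 and 253 CPM in post-caerulein 01 to 04, against 43.6, 53.0 and 734 CPM in untreated 01 to 03. The untreated libraries thus held both the lowest values and the highest one, 15.2 times the mean of the other two. In the larger block Lama3 rose by 1.27 ± 0.21 on the log2 scale (SE, edgeR quasi-likelihood, adjusted p = 0.0116), whereas post-caerulein 04 was lower than untreated 03 by a log2 ratio of -1.54. With the block Lama3 had 0.46 ± 0.56 (adjusted p = 0.74), and by group alone -0.89 ± 0.94 (adjusted p = 0.877, edgeR quasi-likelihood).

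Lama4, a chain of vascular and mesenchymal basement membranes, was scarce but steadier. It was at 22.6, 20.1, 17.1 and 21.6 CPM in post-caerulein libraries, against 6.21, 8.27 and 18.6 CPM in untreated ones. Only untreated 03 reached the range of the post-caerulein group. It rose by 1.48 ± 0.19 in the larger block (adjusted p = 0.00428) and had a value of 1.09 ± 0.27 with the block, which did not pass (adjusted p = 0.0986, edgeR quasi-likelihood). Like Lama4, the fibroblast marker sum given above was lowest in untreated 01 and 02. Elsewhere the orders differed, with post-caerulein 01 highest for Lama4 and lowest of its group for the sum. Of the 6 tested markers of that list, 4 rose in the larger block. The 7 pericyte and smooth muscle markers, of which 4 stayed under 1 CPM and most of the sum was Notch3, summed to 36.9, 62.7, 57.7 and 39.2 CPM in post-caerulein libraries, against 33.5, 35.4 and 88.5 CPM in untreated ones. The part of either list in the result was not tested. Lama5, the main alpha chain of ductal and most adult epithelia, was at 1713, 1618, 1622 and 1822 CPM in post-caerulein and 1402, 1561 and 2760 CPM in untreated libraries. It did not pass in any of the 3 quasi-likelihood fits.

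Of the beta and gamma chains, the epithelial chain Lamb3 was at 582, 410.0, 408 and 589.9 CPM in post-caerulein libraries, against 287, 287 and 862 CPM in untreated 01 to 03. It rose by 0.72 ± 0.17 in the larger block (adjusted p = 0.0368). Lamb1, the beta chain of the widespread laminins, was at 63.1, 82.1, 60.8 and 169 CPM in post-caerulein libraries, against 37.1, 42.4 and 236 CPM in untreated ones. It rose by 0.81 ± 0.16 in the larger block (adjusted p = 0.0178). For both chains untreated 03 was the highest of all libraries. With the block Lamb3 had 0.33 ± 0.27 (adjusted p = 0.591) and Lamb1 had 0.41 ± 0.26 (adjusted p = 0.482, edgeR quasi-likelihood). The log2 ratio of post-caerulein 04 over untreated 03 was -0.55 for Lamb3 and -0.49 for Lamb1. Lamc1, the common gamma chain, stayed between 601 and 846 CPM in post-caerulein and 645 and 739 CPM in untreated libraries, and Lamb2, the beta chain of muscle and kidney basement membranes, between 49.3 and 109 CPM in post-caerulein and 63.3 and 75.9 CPM in untreated libraries. Neither passed in any of the 3 quasi-likelihood fits.

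Of the 5 tested type IV collagen chains, Col4a1 fell and Col4a5 rose in the larger block, and the others did not pass. Col4a1 was at 651, 733, 687 and 805 CPM in post-caerulein libraries, against 1009, 1050 and 612 CPM in untreated ones, and it is the 1 gene of the 38 that fell in the larger block, by 0.55 on the log2 scale (SE 0.10, adjusted p = 0.0153, edgeR quasi-likelihood). Col4a2, the partner chain in the same trimer, was at 599.9, 745, 715 and 778 CPM in post-caerulein libraries, against 834, 856 and 643 CPM in untreated ones, with a log2 fold change of -0.28 ± 0.12 that did not pass (adjusted p = 0.205). For both genes untreated 03 was below untreated 01 and 02, the opposite of most laminins. The ratio of Col4a1 to Col4a2 per kilobase was 1.06, 0.959, 0.937 and 1.01 in post-caerulein libraries, against 1.18, 1.20 and 0.928 in untreated ones, close to equal levels of the 2 genes whose starts are printed above, whereas the protein trimer holds Col4a1 chains in excess of Col4a2 chains.

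Col4a5, a chain of the networks found in kidney, lung and some epithelia, moved the other way. It was at 38.1, 67.6, 62.0 and 53.2 CPM in post-caerulein libraries, against 21.7, 21.5 and 57.2 CPM in untreated ones. It rose by 1.40 ± 0.24 in the larger block (adjusted p = 0.0132) and had 0.93 ± 0.33 with the block (adjusted p = 0.204, edgeR quasi-likelihood). Its ratio to Col4a1 per kilobase was 0.0777 ± 0.0172 (SD, n = 4) in post-caerulein and 0.0457 ± 0.0423 (SD, n = 3) in untreated libraries. By library the untreated ratios were 0.0218, 0.0207 and 0.0945, so untreated 03 was above every post-caerulein library (0.0592 to 0.0933). Col4a6, read from the opposite strand beside it, had 7, 37, 41 and 26 reads in post-caerulein libraries, against 0, 5 and 20 reads in untreated ones, and did not pass. Col4a4 was at 0.673 to 1.24 CPM in post-caerulein and 0.443 to 0.668 CPM in untreated libraries, and Col4a3 had 3 to 7 reads in post-caerulein and 3 to 8 in untreated libraries.

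Nid1, the nidogen that bridges laminin and type IV collagen, had the smallest p of the 34 genes in the larger block. It was at 556, 379, 368 and 200.1 CPM in post-caerulein libraries, against 45.7, 51.3 and 213 CPM in untreated ones. Untreated 03 lay just above post-caerulein 04, and every other post-caerulein library was above every untreated one. In the larger block Nid1 rose 9.09-fold (log2 3.19 ± 0.22, adjusted p = 0.000515, edgeR quasi-likelihood), and it was called in each of 10 alternatives to that fit. With the block it had 2.27 ± 0.68, which did not pass (adjusted p = 0.147), and between post-caerulein 04 and untreated 03 the log2 ratio was -0.09. Nid2, the second nidogen, was at 0.140, 0.305, 0.379 and 0.484 CPM in post-caerulein libraries, against 0.0743, 0.105 and 0.133 CPM in untreated ones, from 3 to 23 reads per library. The groups did not overlap in CPM, although post-caerulein 01 had 5 reads and untreated 03 had 6. Nid2 did not pass in any of the 3 quasi-likelihood fits (adjusted p = 0.117 with the block).

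The ratio of Nid1 to Lamc1, the laminin chain that nidogen binds, was 0.823, 0.687, 0.646 and 0.417 per kilobase in post-caerulein libraries, against 0.0775, 0.0995 and 0.381 in untreated ones. The Nid1 transcript was thus below that of Lamc1 in all libraries and lowest in untreated 01 and 02. Fibroblasts also make nidogen, and their markers summed to 3.53, 8.38, 4.72 and 7.72 CPM in post-caerulein 01 to 04, against 0.495, 0.316 and 22.5 CPM in untreated 01 to 03. Like Nid1, the sum was lowest in untreated 01 and 02. The other libraries differed in order, with post-caerulein 01 highest for Nid1 and lowest of its group for the sum. Untreated 03 had the highest sum, while for Nid1 it was below post-caerulein 01, 02 and 03. The part of these markers in the result was not tested.

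Npnt encodes nephronectin, a ligand of the alpha-8 beta-1 integrin that is secreted into basement membranes. It was at 144, 109.5, 102 and 251 CPM in post-caerulein libraries, against 40.9, 43.7 and 207 CPM in untreated ones. Within each block the post-caerulein libraries were higher. It rose by 1.51 ± 0.16 in the larger block (adjusted p = 0.00221), the log2 ratio in the smaller block was 0.28, and with the block it had 1.13 ± 0.26 (adjusted p = 0.0799, edgeR quasi-likelihood). Its known receptor chain Itga8 had at most 0.0280 CPM in any library.

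Among the proteoglycans, Hspg2, which encodes perlecan, was at 513, 529.8, 509 and 712 CPM in post-caerulein libraries, against 290.4, 290.4 and 911 CPM in untreated ones. It rose by 0.86 ± 0.09 in the larger block (adjusted p = 0.00192) and had 0.48 ± 0.22 with the block (adjusted p = 0.326, edgeR quasi-likelihood). Between post-caerulein 04 and untreated 03 its log2 ratio was -0.36. Col18a1, the source of endostatin, was at 957, 864, 872 and 744 CPM in post-caerulein libraries, against 539, 521 and 937 CPM in untreated ones. Col18a1 rose by 0.78 ± 0.10 in the larger block (adjusted p = 0.00405) and had 0.44 ± 0.21 with the block (adjusted p = 0.346, edgeR quasi-likelihood). Its log2 ratio of post-caerulein 04 over untreated 03 was -0.33. In both cases untreated 01 and 02 were the lowest libraries, and untreated 03 was inside or above the range of the post-caerulein group. Agrn was at 1215, 992, 947 and 1212 CPM in post-caerulein libraries, against 721, 804 and 1387 CPM in untreated ones. It did not pass in any of the 3 quasi-likelihood fits (adjusted p = 0.0643 in the larger block).

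**Figure D3:**
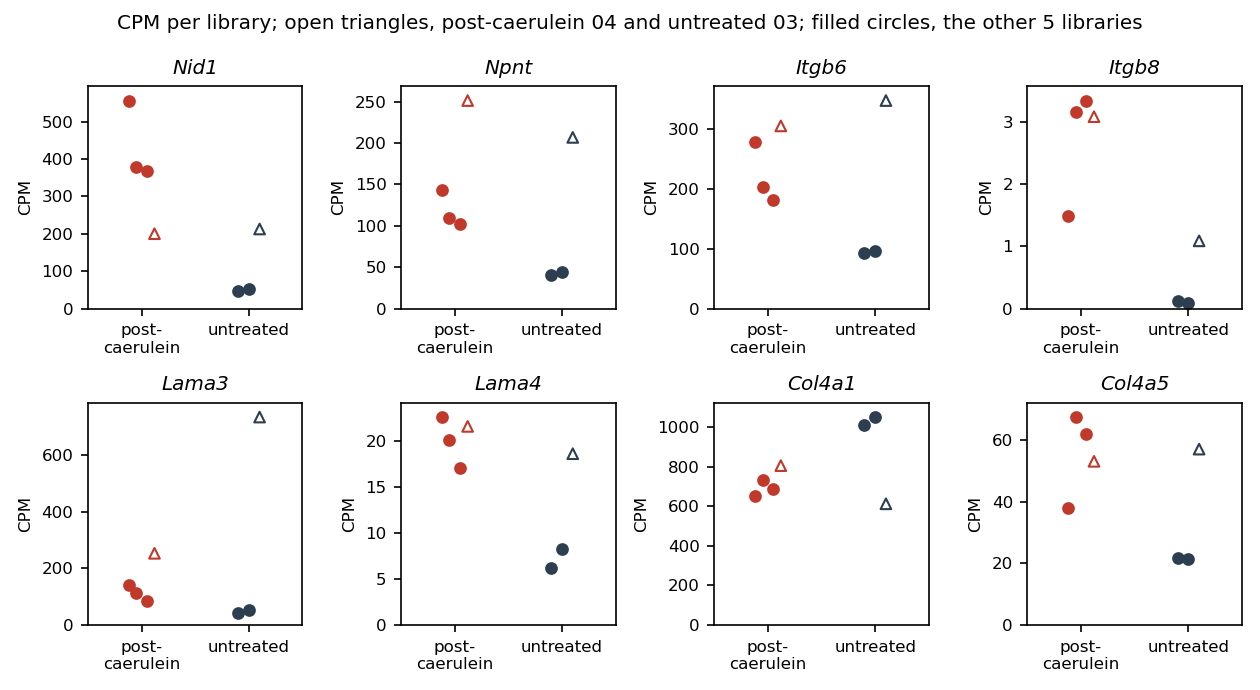
CPM in each library for 8 genes, post-caerulein to the left of untreated in each panel; open triangles are post-caerulein 04 and untreated 03, filled circles the other 5 libraries. In 7 of the panels the untreated circles lie below the post-caerulein circles, in that of Col4a1 above them, and the untreated triangle stands far from the untreated circles in every panel.

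None of the 6 tested integrin alpha chains passed in any of the 3 quasi-likelihood fits. Itga3 was at 1008, 1144, 1087 and 1710 CPM in post-caerulein libraries, against 1071, 1094 and 1965 CPM in untreated ones, with a log2 fold change of 0.02 ± 0.10 in the larger block. Itga2, a collagen receptor chain, was at 802, 723, 715 and 844 CPM in post-caerulein libraries, against 783, 701 and 956 CPM in untreated ones. Itga6, the laminin receptor chain of hemidesmosomes, was at 513, 394, 397 and 519 CPM in post-caerulein libraries, against 365, 345 and 620.5 CPM in untreated ones. The groups overlapped for all of these.

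Itga5, the fibronectin receptor chain, was at 14.0, 20.5, 18.5 and 43.2 CPM in post-caerulein libraries, against 25.4, 22.9 and 67.2 CPM in untreated ones. It was lower in the post-caerulein libraries of each block, with a log2 fold change of -0.50 ± 0.14 with the block (adjusted p = 0.127, edgeR quasi-likelihood). Fn1, its ligand gene outside the 38, rose in the larger block. Itga1, a receptor chain for type IV collagen, ranged from 2.40 to 10.7 CPM in post-caerulein libraries and from 1.02 CPM in untreated 03 to 20.6 CPM in untreated 01. Its direction turned between the blocks, with -1.68 ± 0.50 in the larger block (adjusted p = 0.0777) and a log2 ratio of 1.23 in the smaller one. Itgav stayed between 238 and 443 CPM in post-caerulein and 253 and 384 CPM in untreated libraries, and Itga9 was at or under 1.01 CPM throughout.

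Among the beta chains, Itgb6 and Itgb8, which both partner alpha-V, rose in the larger block. Itgb6, the epithelial chain that rises in injured epithelia, was at 278, 203, 182 and 306 CPM in post-caerulein libraries, against 93.4, 96.7 and 348 CPM in untreated ones. It rose by 1.24 ± 0.18 in the larger block (adjusted p = 0.00734, edgeR quasi-likelihood) and had 0.80 ± 0.30 with the block (adjusted p = 0.220). Per kilobase, the ratio of Itgb6 to Itgav was 0.730, 0.853, 0.888 and 1.08 in post-caerulein libraries, against 0.411, 0.444 and 1.05 in untreated ones, so that untreated 01 and 02 held the least beta-6 transcript per alpha-V transcript.

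Itgb8, the other chain that partners alpha-V in activating TGF-beta, was scarce and had 53, 114, 159 and 147 reads in post-caerulein libraries, against 5, 4 and 49 reads in untreated ones. These were 1.49, 3.16, 3.35 and 3.09 CPM in post-caerulein libraries, against 0.124, 0.0844 and 1.09 CPM in untreated ones, and the groups did not overlap. Non-overlapping groups were found for 4 of the 34 tested genes (Itgb8, Nid2, Dst and Col4a4, all higher), 11.8% against 9.32% of all genes (4.67% higher and 4.65% lower). For Nid2 and Col4a4 the lowest post-caerulein library was only just above the highest untreated one (0.140 against 0.133 CPM and 0.673 against 0.668 CPM). Itgb8 rose by 4.69 ± 0.56 in the larger block (adjusted p = 0.00351), the largest fitted value among the 34, and had 3.34 ± 0.72 with the block, the smallest p of the 34 in that fit (adjusted p = 0.0710, edgeR quasi-likelihood).

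Itgb1, the partner of most alpha chains listed, was at 855, 712, 686 and 1131 CPM in post-caerulein libraries, against 625, 632 and 1266 CPM in untreated ones. Itgb4, the partner of Itga6, was at 751, 845, 866 and 735 CPM in post-caerulein libraries, against 774, 756 and 1016 CPM in untreated ones. Neither passed in any of the 3 quasi-likelihood fits, and in both the groups overlapped. The ratio of Itga6 to Itgb4 per kilobase was 0.847 ± 0.196 (SD, n = 4) in post-caerulein and 0.751 ± 0.125 (SD, n = 3) in untreated libraries. Itgb5 stayed between 33.8 and 47.4 CPM in post-caerulein and 25.1 and 47.8 CPM in untreated libraries, and Itgb3 had at most 29 reads in any library.

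In the hemidesmosome group the cytoplasmic linkers were present without the skin collagen. Dst, the dystonin gene whose epithelial isoform ties Itgb4 to keratin, was at 126, 110.2, 117 and 111 CPM in post-caerulein libraries, against 92.1, 83.0 and 92.0 CPM in untreated ones. The spread within each group was small and the groups did not overlap. Dst rose by 0.45 ± 0.09 in the larger block (adjusted p = 0.0223) and had 0.38 ± 0.09 with the block (adjusted p = 0.0860) and 0.38 ± 0.10 by group alone (adjusted p = 0.269, edgeR quasi-likelihood). Counts per gene do not separate the epithelial isoform from the neuronal and muscle ones.

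Plec, the plectin gene, was at 929.8, 628, 659 and 1212 CPM in post-caerulein libraries, against 593, 584 and 699.8 CPM in untreated ones, with 0.46 ± 0.17 with the block (adjusted p = 0.221). Cd151, a tetraspanin bound to laminin-binding integrins, was at 218, 156, 164 and 230.2 CPM in post-caerulein libraries, against 123, 129 and 234 CPM in untreated ones. Dag1, the dystroglycan gene, ranged from 284 to 450.0 CPM in post-caerulein and from 243 to 307 CPM in untreated libraries. None of these 3 genes passed in any of the 3 quasi-likelihood fits.

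**Figure D4:**
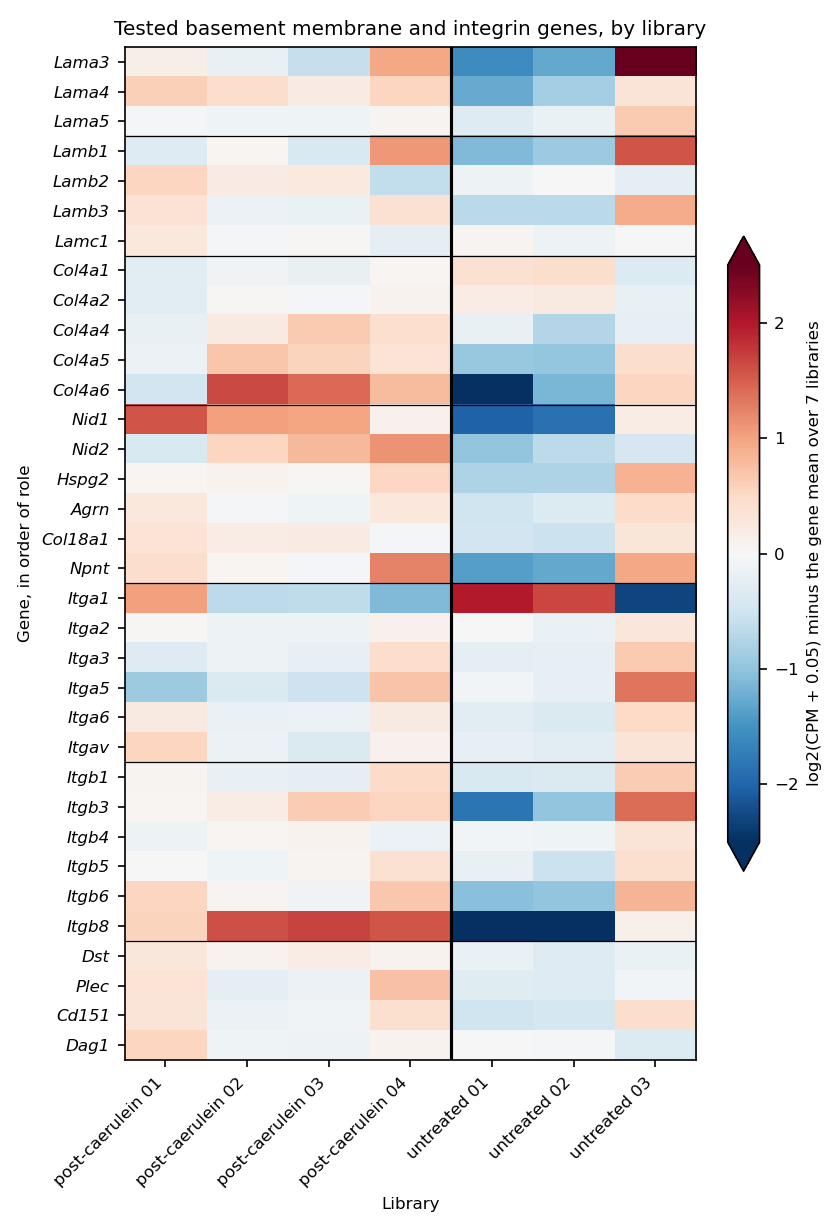
Log2(CPM + 0.05) of each tested gene minus its mean over the 7 libraries, post-caerulein libraries to the left of the line and untreated ones to the right, with genes in order of role; colours saturate at 2.5. Untreated 03 is red for most genes and untreated 01 and 02 are blue, while Col4a1, Col4a2 and Itga1 show the reverse.

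The untreated libraries differed widely among themselves. Untreated 03 was the highest of the 7 libraries for 16 genes, and untreated 01 or 02 was the lowest for 24. These counts were not taken over all genes, so they cannot be read as particular to the 34. Over all genes tested, untreated 03 and untreated 01 and 02 lay at opposite ends of the first principal component. Between untreated 03 and the mean of untreated 01 and 02 the level differed by 3-fold or more for 11 of the 34, while such a difference was found for 12.1% of all genes tested. Both untreated 03 and post-caerulein 04 were above the other 5 libraries for 14 genes, among them Lama3, Lama5, Lamb1, Lamb3, Hspg2, Npnt, Itga3, Itgb1 and Itgb6 (17.9% of all genes), and both were below for Lamb2 and Itga1 (18.2% of all genes).

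The direction of the group difference in the larger block held between post-caerulein 04 and untreated 03 for 10 of the 34 genes, 29.4% against 50.0% of all genes. Of the 13 genes called in the larger block 4 kept their direction (Lama4, Npnt, Itgb8 and Dst) and 9 did not. Of these 9, Lama3, Lamb1, Lamb3, Col4a5, Nid1, Hspg2, Col18a1 and Itgb6 were the 8 that rose in the larger block, and the other was Col4a1. With 1 library a group in the smaller block, this difference between blocks was not tested.

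**Figure D5:**
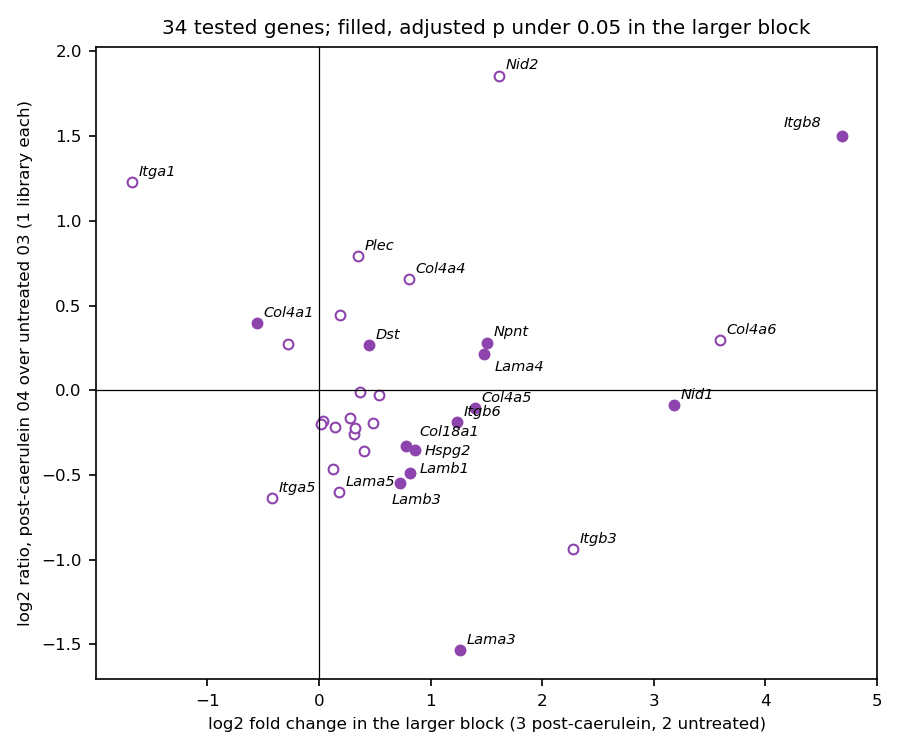
Log2 fold change in the larger block (x axis) against the log2 ratio of post-caerulein 04 over untreated 03 (y axis) for the 34 tested genes; filled points had an adjusted p under 0.05 in the larger block. Itgb8, Npnt, Lama4 and Dst are the filled points at the upper right, and Lama3 lies furthest below 0.

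Genes that act with these proteins were summarised by list, with counts to be read against the 7.35% of all genes that rose and the 6.46% that fell in the larger block. Of 21 adaptors of adhesion complexes, which link integrins to actin, 2 rose in the larger block, Fermt2 (0.76, adjusted p = 0.00259) and Tns1 (3.53, adjusted p = 0.000197), and none fell. Tns1, a tensin, was at 277, 355, 368 and 576 CPM in post-caerulein libraries, against 28.5, 30.0 and 812 CPM in untreated ones. Of 17 genes of matrix assembly 5 rose and 1 fell, with Serpinh1, the collagen chaperone, at 54.2, 87.1, 76.1 and 107 CPM in post-caerulein libraries, against 9.93, 10.8 and 114 CPM in untreated ones. The medians of these lists in the larger block were 0.01 and 0.28. The split between untreated 01 and 02 and untreated 03 was thus also present in genes outside the 38.

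Of 16 tested matrix proteases and inhibitors 5 rose in the larger block, among them the plasminogen activator genes Plau and Plat, and Mmp15, a membrane metalloprotease, fell. Of 16 tested other ligands and matrix genes 9 rose, among them Fn1, Thbs1, Spp1 and Col15a1, and none fell. Thbs1, a thrombospondin that binds integrins and latent TGF-beta, was at 757, 401, 333 and 589 CPM in post-caerulein libraries, against 108, 123 and 459 CPM in untreated ones. Of 15 other adhesion receptors 4 rose, among them Bcam, a receptor of the Lama5 chain, at 454, 319.8, 332 and 273 CPM in post-caerulein libraries, against 171, 189 and 264 CPM in untreated ones. With the block, 0 genes of these 5 lists passed.

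The authors' deposited table lists 31 of the 38 genes. Of these 31, 6 in the authors' deposited table have a false discovery rate under 0.05, all higher in post-caerulein spheroids, or 19.4% against 4.49% of all 12983 genes listed there; none is lower, against 3.39%. In the authors' deposited table these are Npnt (log2 fold change 1.14), Itgb8 (3.52), Nid1 (2.29), Lama4 (1.10), Col4a5 (0.95) and Itgb6 (0.81). They are 6 of the 10 genes with the smallest p in the quasi-likelihood fit with the block, which called none of them.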

How the data were processed

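Per the file headers, the deposited count table gives unnormalised reads for each gene together with its exon coordinates and length. Reads were counted with featureCounts 0.6.1 on GRCm38 (mm10), as the submitters' processing notes state. No source used here names an aligner or a strand setting, and reads of genes that overlap on opposite strands may therefore be mixed. The authors' deposited edgeR table (edgeR 3.2.2, per the submitters' processing notes) holds log2 fold changes, average log2 CPM, a likelihood ratio score and p-values with false discovery rates, per the file headers.

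Gene IDs were matched to symbols without their version (54409 of 54446). Low genes were removed by filterByExpr (10 counts, total of 15), TMM-normalised and tested with edgeR 4.0.16 (robust quasi-likelihood, two-sided), with Benjamini-Hochberg adjustment over all genes kept. SE is the log2 fold change over the root of the F statistic. Alternatives were RLE or total-count scaling, no filter, DESeq2 1.42.0, limma-voom (limma 3.58.1), each library left out, the replicate number as a block, and summed close pairs. The procedure was tested on simulated data. The genes, lists and tests were chosen with earlier results of these data known. Values per library are given for genes called in any of the 3 quasi-likelihood fits, the 12 highest per kilobase and the 10 of smallest p with the block, with up to 4 genes of each other list. Other genes given (Itga8, Fn1 and list genes named as examples) were chosen after their values were seen. A list of related genes is not reported here. Analyses ran in R 4.3.3 with figures in matplotlib 3.10.9.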

Additional observations from a re-analysis of the deposited data

Results flagged for a closer look

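A library far from the other 3 of the post-caerulein group was found for 3 of the 34 tested genes by Dixon's test, where chance flags about 1 group in 20. Hspg2 was at 712 CPM in post-caerulein 04, while the other 3 lay at 509 to 529.8 CPM. Itga1 was at 10.7 CPM in post-caerulein 01, while the others lay at 2.40 to 3.35 CPM. Itgb8 was at 1.49 CPM in post-caerulein 01, below the 3.09 to 3.35 CPM of the others.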

How the results depend on the processing

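The count of genes called by group alone was 0 of 34, and it stayed at 0 with every alternative except DESeq2 (3 called, with 3.12% of all genes) and leaving out 1 library (0 to 9, the 9 without untreated 03, with 6.83% of all genes). No shared day or animal is stated for equal replicate numbers. Deviations from the group mean in libraries of the same number had correlations of 0.397, 0.162 and -0.233. The distance of untreated 03 and post-caerulein 04 from the other libraries enters these values. They therefore cannot decide whether the numbers pair the libraries. The replicate block called 0 by group alone, where it called 0 of all 16438 genes. With the block of the deposited table the count was 0, against 7 by DESeq2 (9.16% of all genes) and 0 to 13 with 1 library left out. The 13 came without untreated 03 or post-caerulein 04 (13.5% and 13.0% of all genes), which then leaves the comparison to the larger block. With the replicate block as well there were 13 (7.20% of all genes), in a fit with 1 residual degree of freedom. In the larger block alone the count was 13, and 1 to 25 with 1 library left out (1.76% to 32.9% of all genes); leaving 1 untreated library assumes that it varies like the post-caerulein ones. Scaling, filtering, DESeq2 and limma-voom gave 13 to 17 there, with 8.92% (no filter) to 18.1% (DESeq2, the 17) of all genes. Summed close pairs gave 0 by group alone and with the block, in fits that called 0 of 16781 genes. These zeros therefore say nothing particular to the genes described here. Within a fit, no log2 fold change that was recomputed changed sign. Only genes called in the larger block or among the 10 of smallest p with the block were recomputed. Between fits the sign did change for some genes. Lama3 had -0.89 by group alone, 0.46 with the block and 1.27 in the larger block, and Lamb1 had -0.17, 0.41 and 0.81. Over all genes no scaling moved the median by 0.1. Depth limits Lama1, Col4a3, Itga9, Col17a1, Nid2, Col4a6 and Itgb3, each with under 50 reads in every library.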
